A study of Homo sapiens with 16 samples.

Results

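The comparison set A549 cells given the compound 6D7 for 48 h against A549 cells given the solvent DMSO for 48 h. Its members are the 2 libraries titled for 6D7 at 48 h and the 2 titled for DMSO at 48 h, taken by label and not by a measured value, and they are 4 of the 16 libraries of the series. A549 is a human lung adenocarcinoma line, and every group of the series used the same derivative, which overexpresses CD63, a tetraspanin of exosome membranes, fused to the Nluc luciferase. The labels call 6D7 an inhibitor, print 4 µM for every treatment including DMSO, and give the compound by its code name only. The other groups used here are the compounds 5G6 and 7F8 at 4 µM for 48 h, and 6D7 and DMSO at 4 µM for 4 h, each with 2 biological replicates by the series description. PolyA RNA was sequenced, and the title of the series links exosome release to AMPK and SREBPs.

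SREBPs are membrane-bound transcription factors held in the endoplasmic reticulum by INSIG proteins when sterols are plentiful. When sterols fall they travel to the Golgi, are cut, and switch on genes of cholesterol and fatty acid synthesis. AMPK is a kinase activated by low cellular energy that restrains lipid synthesis and growth. Exosomes are vesicles formed inside late endosomes and released when those compartments fuse with the cell surface rather than with lysosomes. A dividing cell line also keeps genes of DNA replication and mitosis at high levels, driven in part by E2F factors.

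The 4 libraries held 6.10 to 6.87 aligned gigabases and 14248 to 14732 genes at a TPM (length-scaled transcript abundance with a fixed sum per library) of at least 1. All 9 epithelial and A549 markers were at 1 TPM or more in all 4 libraries, and their summed level was 7044 and 14282 TPM with 6D7 and 15369 and 15420 TPM with DMSO. KRT18, a simple epithelial keratin, was at 952 and 2054 TPM with 6D7 and 1944 and 2099 TPM with DMSO. Of 3 lung alveolar markers, SFTPB, SFTPC and NAPSA, only NAPSA was at 1 TPM or more in all 4 libraries. Their summed level reached at most 2.48 TPM. Of 7 blood markers and 10 fibroblast or endothelial markers, CD14, ITGAM and COL1A1 alone were at 1 TPM or more in all 4 libraries, summed levels reached at most 10.6 and 21.0 TPM, and PTPRC, CD3E, DCN and COL1A2 were at or below 0.0967 TPM in each library. The 2 libraries of 6D7 at 48 h differed more than replicates of any other group, with 13.97% of tested genes over 2-fold apart (6.62% between the DMSO libraries at 48 h). The chromosome M genes TRNC and TRNY exchanged places in both 6D7 libraries, so chromosome M was left out and TPM rescaled.

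6D7 changed the transcriptome widely by 48 h, with many cell cycle genes lower and a share of the genes of sterol synthesis, the lysosome, glucose use and the ATF4 response higher. Of 15958 tested genes 953 were called by limma at a Benjamini-Hochberg adjusted p below 0.05, 5.97% of those tested. The 381 called higher made up 2.39% and the 572 called lower 3.58%. At an unadjusted p below 0.05 limma had 1521 genes higher and 1908 lower, together 21.5% of those tested. The counts called in each gene list below are to be read beside these shares. Among the 953 the difference was at least 2-fold in 722, and in all 953 both 6D7 libraries lay on one side of both DMSO libraries. Such a gap without overlap was far more common than a call, at 20.7% of tested genes upward and 27.1% downward. The median log2 difference over all tested genes was -0.06 (0.01 after median-of-ratios scaling, which called 460 higher and 478 lower). Differences were taken between values of log2(TPM + 1), so that the change of weakly expressed genes is understated, and SE is the standard error of that difference from the fit. In bulk RNA, less RNA per cell and fewer cells of a kind cannot be told apart.

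**Figure D1:**
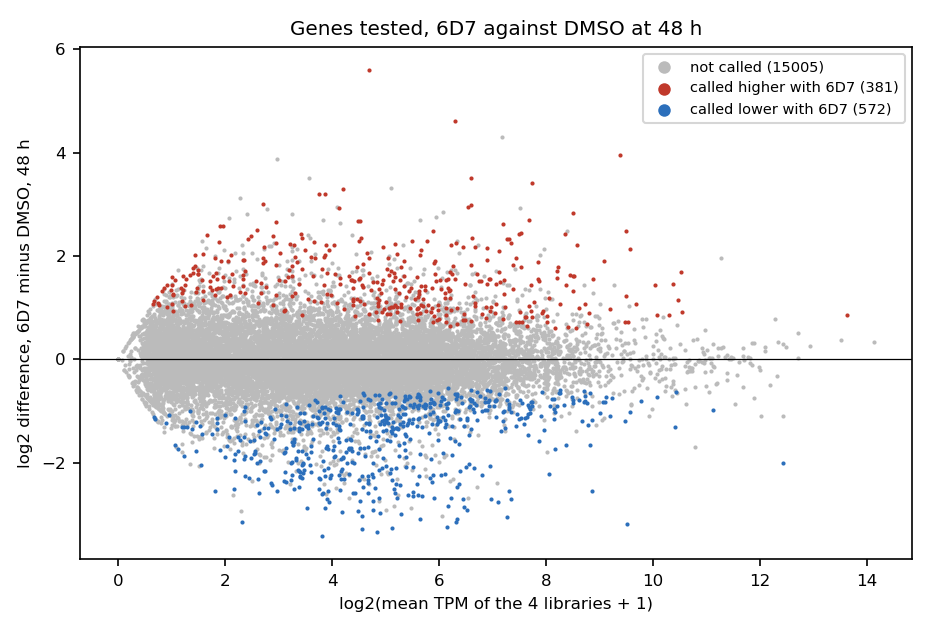
Each point is 1 of 15958 tested genes, with the log2 of its mean TPM plus 1 over the 4 libraries on the horizontal axis and the log2 difference of 6D7 minus DMSO at 48 h on the vertical axis. The 381 genes called higher (red) and 572 called lower (blue) are found from low to high expression.

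These calls borrow their error from all 16 libraries, and single libraries weighed heavily. Fitted on the 48 h libraries alone limma called 7 genes, and on the 4 compared libraries alone 0 genes, with 2279 at an unadjusted p below 0.05. Left out in turn, 6D7 replicate 1 gave 136 calls, 6D7 replicate 2 gave 1765, DMSO replicate 1 gave 13 and DMSO replicate 2 gave 325. Since the groups did not overlap in any called gene, leaving out a library could not turn a direction. Of the called genes, 734 lay farther from DMSO in 6D7 replicate 1 and 211 in replicate 2. The genes called in all 4 omissions numbered 11, namely ABHD3, CSTB, DDC, GDF15, IGFBP1, ISY1-RAB43, KCP, NEU1, RRAGD, SFPQ and SOD2. This group was drawn up after the values were seen, and the error of ISY1-RAB43 rests partly on zeros listed in other groups.

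The sterol synthesis enzymes formed the most uniform rise among lipid genes. Of 20 tested members 12 were called higher and 0 lower, and both 6D7 libraries exceeded both DMSO libraries in 19. Their median log2 difference was 1.68 against -0.06 over all tested genes, and their summed level was 4522 and 4851 TPM with 6D7 and 1388 and 1327 TPM with DMSO. The summed level was thus alike in the 2 libraries of each group and well apart between groups. PMVK, the phosphomevalonate kinase, was the exception to the gap, at 93.3 and 59.8 TPM against 80.4 and 81.4 TPM. With 6D7 replicate 1 left out 0 members were called, with 6D7 replicate 2 left out 5, with DMSO replicate 1 left out 0 and with DMSO replicate 2 left out 2, while the median stayed between 1.601 and 1.79.

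INSIG1, the sterol-sensing anchor of SREBP and itself an SREBP target (chr7:155297772-155310235 on GRCh38), stood at 463 and 313 TPM with 6D7 and 38.6 and 31.95 TPM with DMSO. The groups lay far apart, and the mean was 11 times that of DMSO (log2 difference 3.40, SE 0.57, adjusted p = 0.0104). HMGCS1, which makes the HMG-CoA that feeds the mevalonate pathway, was at 345 and 262 TPM against 62.9 and 48.2 TPM (log2 difference 2.43, SE 0.59, adjusted p = 0.0355). MVD, which makes isopentenyl diphosphate, was at 287 and 217 TPM against 44.1 and 36.2 TPM (log2 difference 2.61, SE 0.51, adjusted p = 0.0163). Both enzymes were higher in each 6D7 library than in either DMSO library. SQLE, which oxidises squalene in the first oxygen-requiring step, was at 287 and 261 TPM against 69.7 and 69.00 TPM (log2 difference 1.96, SE 0.47, adjusted p = 0.0343). LSS, which closes the ring to lanosterol, was at 138 and 147 TPM against 29.6 and 31.6 TPM (log2 difference 2.18, SE 0.43, adjusted p = 0.0165). MSMO1, a methyl sterol oxidase further down, was at 308 and 399 TPM against 48.98 and 58.5 TPM (log2 difference 2.69, SE 0.49, adjusted p = 0.0128). The called set thus spanned the mevalonate steps, the squalene steps and the steps after lanosterol, and MVK, IDI1, FDPS, FDFT1, CYP51A1 and SC5D were called too, at log2 differences from 1.45 to 2.25. DHCR7, the last reductase of one route to cholesterol, had a log2 difference of 2.01 with an adjusted p of 0.0635.

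The SREBP factors themselves were not called. SREBF1 was at 78.9 and 269.5 TPM with 6D7 and 141 and 226 TPM with DMSO, with the lowest and the highest value both among the 6D7 libraries (log2 difference -0.29, SE 0.46, adjusted p = 0.78). SREBF2, which favours sterol genes, was at 109 and 120.5 TPM against 60.9 and 79.1 TPM (log2 difference 0.71, SE 0.37, adjusted p = 0.287). Of the 9 tested genes of this machinery INSIG1 alone was called, and the median was 0.10. SCAP, the sterol-sensing escort of SREBP, had a log2 difference of -0.26 (adjusted p = 0.539).

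Fatty acid synthesis was called in 2 of 20 tested members, with a median of 0.73. ACSS2, which makes acetyl-CoA from acetate, rose from 16.5 and 21.2 TPM to 97.8 and 235 TPM (log2 difference 2.95, SE 0.55, adjusted p = 0.0139). ACSL4, which activates long polyunsaturated fatty acids, was at 133 and 239 TPM against 53.8 and 66.7 TPM (log2 difference 1.56, SE 0.42, adjusted p = 0.0498). ACSL4 lost its call with any 1 of the 4 libraries left out. ACSS2 kept its call without either 6D7 library and lost it without either DMSO library, where 0 members of the list were called. FASN, the fatty acid synthase, was at 199 and 527 TPM against 129 and 154 TPM, and SCD, the stearoyl-CoA desaturase, at 1188 and 7141 TPM against 523 and 1063 TPM. In both genes replicate 2 of 6D7 stood well above replicate 1, and the adjusted p was 0.168 and 0.137. The summed list level shows the same gap between replicates, at 4306 and 12998 TPM with 6D7 and 3082 and 3756 TPM with DMSO.

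Lipid storage genes were called in 4 of 21 tested members, 3 higher and 1 lower, beside 2.39% and 3.58% of all tested genes. PLIN2, the main coat protein of lipid droplets in many cells, was at 366 and 908 TPM against 52.4 and 123 TPM (log2 difference 2.83, SE 0.53, adjusted p = 0.0139). LPIN1, a phosphatidate phosphatase, was at 72.3 and 106 TPM against 11.9 and 24.1 TPM (log2 difference 2.30, SE 0.36, adjusted p = 0.00841). Both rose, and both 6D7 libraries lay clear of DMSO. PNPLA3, an SREBP-responsive lipid-droplet protein, was at 5.08 and 10.6 TPM against 1.20 and 2.95 TPM, and LIPE, the hormone-sensitive lipase, fell to 1.70 and 3.18 TPM from 5.25 and 6.24 TPM. Without DMSO replicate 1, 0 members of the list were called. Without 6D7 replicate 1 and without DMSO replicate 2, 2 members were called higher and LIPE lost its call. Among 20 tested genes of fatty acid oxidation ACADVL, the very-long-chain acyl-CoA dehydrogenase, was the single call, at 602 and 468 TPM against 318 and 341 TPM (log2 difference 0.69, SE 0.15, adjusted p = 0.0215).

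Cholesterol handling genes were called higher in 4 of 14 tested members and lower in 0, with a median of 0.69. NPC1, the membrane protein that carries cholesterol out of the late endosome and lysosome, was at 141 and 184 TPM with 6D7 and 31.1 and 30.9 TPM with DMSO (log2 difference 2.34, SE 0.35, adjusted p = 0.00662). Its soluble partner NPC2 was at 314 and 424 TPM against 193 and 130.1 TPM (log2 difference 1.20, SE 0.25, adjusted p = 0.0208). STARD4, a cytosolic sterol carrier, was at 39.5 and 67.6 TPM against 15.8 and 15.5 TPM (log2 difference 1.66, SE 0.32, adjusted p = 0.0153). Each of these rose with no overlap between groups. ABCA1, the cholesterol efflux pump, followed the replicate number rather than the treatment, at 0.996 and 13.2 TPM with 6D7 and 1.48 and 14.9 TPM with DMSO (adjusted p = 0.935). Without DMSO replicate 1, 0 of the 14 were called, and without DMSO replicate 2, 1.

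**Figure D2:**
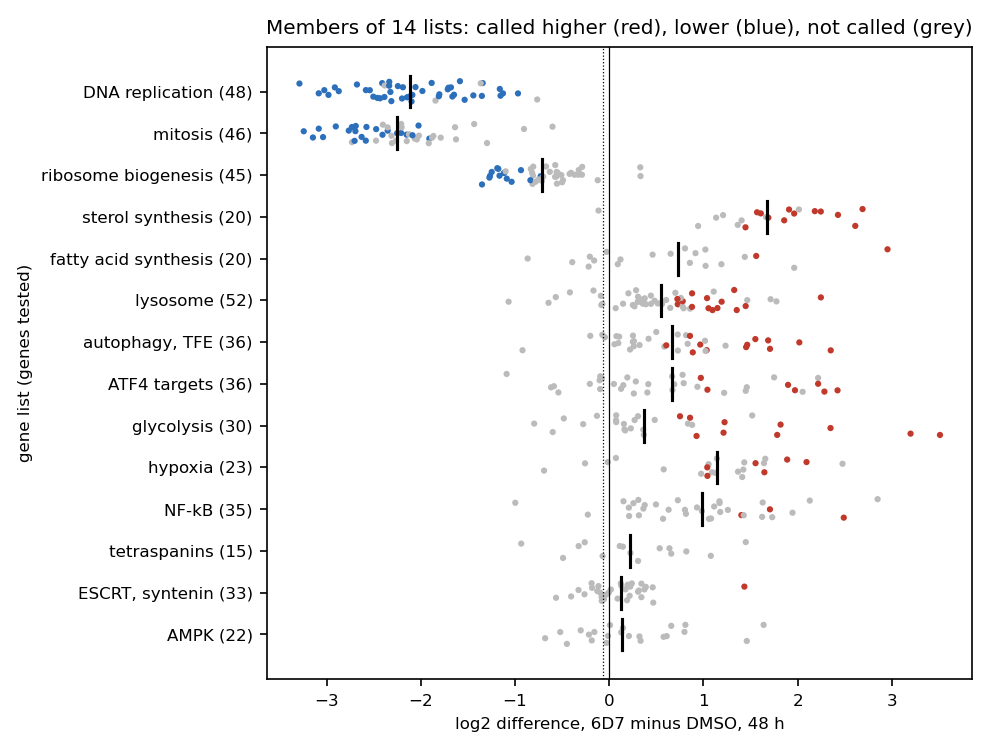
Each point is 1 tested gene of a list, placed by its log2 difference of 6D7 minus DMSO at 48 h, with the list's median as a black bar and the median of all tested genes as a dotted line. Medians of the DNA replication and mitosis lists lie at -2.11 and -2.26, that of sterol synthesis at 1.68, and the exosome-related lists at the bottom lie near 0.

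Lysosome genes were called higher in 14 of 52 tested members and lower in 0, with a median of 0.55. Both 6D7 libraries exceeded both DMSO libraries in 34 of the 52, beside 20.7% of all tested genes. NEU1, the lysosomal sialidase, was at 122 and 140.3 TPM with 6D7 and 26.6 and 26.98 TPM with DMSO, a gap of 4.90 times between the means (log2 difference 2.25, SE 0.24, adjusted p = 0.00250). CTSD and CTSB, an aspartic and a cysteine protease of the lysosome, were at 1764 and 2130.0 TPM against 598 and 842 TPM and at 497 and 543 TPM against 182 and 234 TPM. PSAP, the precursor of the saposins that help to break down sphingolipids, was at 1688 and 2212 TPM against 736 and 1029.6 TPM. The DMSO libraries of NEU1 were nearly equal, and in CTSD, CTSB and PSAP both DMSO libraries lay below both 6D7 libraries, with adjusted p of 0.00660, 0.00855 and 0.00821. The other members called were CTSA, CTSF, HEXA, NAGLU, SMPD1 and ASAH1, which are hydrolases, the proton pump subunits ATP6V0D1, ATP6V1D and ATP6V1E1, and the chloride exchanger CLCN7. Their log2 differences ran from 0.72 to 1.35.

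Genes of autophagy and of the lysosomal nutrient-sensing system were called higher in 12 of 36 and lower in 0, with a median of 0.67. RRAGD, a Rag GTPase that recruits mTORC1 to the lysosome and a target of the TFE factors, was at 15.1 and 19.1 TPM against 2.19 and 2.88 TPM (log2 difference 2.35, SE 0.25, adjusted p = 0.00250). SQSTM1, the autophagy receptor p62, was at 2597 and 1926 TPM against 709.7 and 678 TPM (log2 difference 1.69, SE 0.22, adjusted p = 0.00436). OPTN, another receptor, was at 159 and 104 TPM against 48.4 and 44.4 TPM, and MAP1LC3B, which coats the autophagosome, at 224 and 139.8 TPM against 56.4 and 63.4 TPM. The values of the groups were well apart in all 4 genes. RRAGA, RRAGC, FNIP1, PIP4P1, GABARAP, WIPI1, ATG13 and GPNMB were called as well. With 1 library left out the calls ran from 7 to 11 for the lysosome and from 7 to 11 for autophagy, except without DMSO replicate 1, where 1 member of each list was called, and without 6D7 replicate 2, where 3 lysosome members were also called lower.

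The letters TCACGTGA, the core of the element through which TFE factors act, were looked for on both strands of the RefSeq promoter windows (GRCh38.p14, 250 bases before to 50 bases after the first start listed). They were found in 6 of the 62 lysosome and autophagy genes with a window, 9.68%, and in 1.86% of the 11264 tested genes with one. Among the 18 called members with a window 2 held them, and among the 44 not called 4 did. The stretch in the promoter of ATP6V0D1, a called member of the lysosome list, is shown with those letters in capitals, and it lies at chr16:67481190-67481237 on the minus strand.
ATP6V0D1: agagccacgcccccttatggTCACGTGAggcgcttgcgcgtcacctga
A match is a description of the letters and was not tested as a site. The sterol element letters TCACNCCAC were in 0 of 15 windows of sterol synthesis genes and in 1.11% of all windows.

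The list of ATF4 targets, genes that respond to amino acid shortage and endoplasmic reticulum stress, counts ATF4 as a member. It was called higher in 7 of 36 members and lower in 0, with a median of 0.67. ATF4 itself (chr22:39514494-39522686) was at 938 and 622 TPM with 6D7 and 415 and 364 TPM with DMSO (log2 difference 0.97, SE 0.19, adjusted p = 0.0166). TRIB3, a pseudokinase induced by ATF4 and CHOP, was at 455 and 645 TPM against 85.2 and 118 TPM (log2 difference 2.42, SE 0.41, adjusted p = 0.0105). GDF15, a secreted stress cytokine, was at 777 and 483 TPM against 114 and 149.8 TPM (log2 difference 2.22, SE 0.24, adjusted p = 0.00274). NUPR1, a small stress-induced chromatin protein, was at 44.8 and 104 TPM against 10.9 and 16.02 TPM, and ADM2, a secreted peptide of the calcitonin family, at 6.06 and 5.02 TPM against 0.894 and 0.615 TPM. All 5 rose with no overlap between groups. CHAC1, a glutathione-degrading enzyme, and VEGFA, which is also in the hypoxia list, completed the called set. The amino acid synthesis enzymes of the same list stayed near DMSO, with ASNS, the asparagine synthetase, at 51.8 and 54.9 TPM against 39.8 and 40.2 TPM (adjusted p = 0.379) and PHGDH, the first enzyme of serine synthesis, at 47.3 and 47.4 TPM against 42.9 and 42.3 TPM (adjusted p = 0.87). DDIT3, which encodes CHOP, was at 139 and 124 TPM against 32.7 and 29.3 TPM. Both 6D7 libraries thus lay well above both DMSO libraries, although the gene was not called by limma (adjusted p = 0.135). The list had 3 calls without 6D7 replicate 1, 1 without DMSO replicate 1 and 3 without DMSO replicate 2, and 8 higher with 2 lower without 6D7 replicate 2.

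Other stress lists moved little or in both directions. Of 29 endoplasmic reticulum chaperone and sensor genes 2 were called higher, beside 2.39% of all tested genes. P4HB, a disulfide isomerase, was at 2355 and 1548 TPM against 949.6 and 1075 TPM. EIF2AK3, the stress kinase PERK, was at 60.1 and 25.5 TPM against 16.5 and 14.4 TPM. Of 23 heat shock genes 3 were called lower and 1 higher. The mitochondrial chaperones TRAP1 and HSPE1 and the co-chaperone STIP1 fell, TRAP1 to 108 and 116 TPM from 205 and 201 TPM, and the small heat shock protein HSPB8 rose to 86.1 and 41.2 TPM from 17.3 and 13.2 TPM. Of 20 tRNA synthetases FARSB and KARS fell, FARSB to 36.7 and 39.1 TPM from 86.97 and 87.3 TPM. Of 33 NRF2 targets FTH1, the ferritin heavy chain, was called higher, at 17079 and 15394 TPM against 8439.9 and 9588 TPM, while the median of the list was -0.48. HMOX1, the haem oxygenase, was at 219.9 and 450.0 TPM against 257 and 238 TPM, with a DMSO range inside that of 6D7 (adjusted p = 0.736).

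Some genes of glucose use and hypoxia were called higher, and none of either list was called lower. Glycolysis was called higher in 10 of 30 tested members and lower in 0 (median 0.36), and the remaining hypoxia genes in 6 of 23 and 0 (median 1.14). HK2, the inducible hexokinase, was at 33.6 and 16.9 TPM with 6D7 and 1.00 and 2.66 TPM with DMSO (log2 difference 3.20, SE 0.39, adjusted p = 0.00370). ALDOC, a brain-type aldolase, was at 108 and 246 TPM against 9.03 and 19.7 TPM (log2 difference 3.51, SE 0.57, adjusted p = 0.00899). PGK1, the phosphoglycerate kinase, was at 796 and 1240.1 TPM against 359.7 and 501 TPM. PDK1, a kinase that inhibits pyruvate dehydrogenase, was at 34.2 and 40.04 TPM against 3.87 and 10.4 TPM. Each of these had both 6D7 libraries above both DMSO libraries, with adjusted p of 0.0119 for PGK1 and 0.00932 for PDK1. SLC2A1, PFKL, PFKFB4, ALDOA, ENO2 and GYS1 were the other glycolysis calls.

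Among hypoxia genes the mitophagy receptors BNIP3 and BNIP3L were at 362 and 355 TPM against 73.4 and 126 TPM and at 242 and 199.9 TPM against 31.7 and 80.9 TPM. The collagen prolyl hydroxylase P4HA2 was at 123 and 88.2 TPM against 26.9 and 45.2 TPM, and VEGFA, the angiogenic growth factor, at 71.04 and 76.9 TPM against 31.9 and 39.2 TPM. In BNIP3 and BNIP3L the DMSO libraries also differed, replicate 2 being the higher. Without DMSO replicate 1, 0 members of either list were called, and without 6D7 replicate 1 there were 5 glycolysis and 0 hypoxia calls. Without 6D7 replicate 2, 7 glycolysis genes were called higher and 2 lower, with 5 and 1 among hypoxia genes. The nuclear-encoded respiratory chain was called in 1 of 64, ATP5MC1, which fell to 359 and 337 TPM from 602 and 500.3 TPM, and the median of that list was -0.24.

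NF-kB and inflammatory genes had a median of 0.98 over 35 tested members, and 3 of them were called higher. SOD2, the mitochondrial superoxide dismutase and a strong NF-kB target, was at 1665 and 804 TPM with 6D7 and 229 and 184 TPM with DMSO (log2 difference 2.49, SE 0.28, adjusted p = 0.00274). IL6, the cytokine, was at 65.97 and 37.5 TPM against 15.6 and 13.6 TPM (log2 difference 1.71, SE 0.41, adjusted p = 0.0332), and ICAM1, the adhesion molecule, at 43.2 and 24.3 TPM against 9.56 and 14.1 TPM (log2 difference 1.40, SE 0.33, adjusted p = 0.0310). Replicate 1 of 6D7 was the higher in all 3 genes. Over the list the median shift from the DMSO mean was 1.63 in replicate 1 and 0.45 in replicate 2, and the count of calls was 11 without 6D7 replicate 2 and 1 without any other single library of the 4. Interferon-stimulated genes were called in 0 of 37 by limma, with 0 at an unadjusted p below 0.05, beside 21.5% of all tested genes. Their median shift was 0.79 and -0.27 in the 6D7 libraries and 0.40 and -0.40 in the DMSO libraries, so replicate 1 was the higher in both groups.

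Calls among the exosome lists were few, as they were over all tested genes (5.97% called). CD63 (chr12:55725443-55729673), whose reads cannot be assigned to the gene or to the CD63-Nluc transgene, was at 2733 and 2186 TPM with 6D7 and 1902 and 2054 TPM with DMSO (log2 difference 0.31, SE 0.24, adjusted p = 0.503). CD9, another vesicle tetraspanin, was at 318 and 312 TPM against 159 and 199.8 TPM (log2 difference 0.82, SE 0.32, adjusted p = 0.162). CD81 was at 221 and 244 TPM against 282 and 275 TPM (log2 difference -0.26, SE 0.14, adjusted p = 0.327). The first 2 were higher in both 6D7 libraries and CD81 was lower in both. None of the 15 tested tetraspanins was called by limma. An unadjusted p below 0.05 was reached by 4 higher and 1 lower, beside 21.5% of all tested genes in either direction. SDCBP, which encodes the syntenin that links syndecans to ALIX in vesicle budding, rose from 156 and 201 TPM to 481 and 479.9 TPM (log2 difference 1.44, SE 0.22, adjusted p = 0.00821). It was the single call among 33 tested ESCRT, syntenin and related genes, whose median was 0.12 (0.21 after median-of-ratios scaling), and it was not called without DMSO replicate 1.

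Among 26 RAB and effector genes SYTL2, a RAB27 effector that tethers vesicles to the plasma membrane, was the single call, at 19.6 and 16.2 TPM against 8.60 and 6.84 TPM (log2 difference 1.12, SE 0.27, adjusted p = 0.0371), and it lost its call without 6D7 replicate 1 and without either DMSO library. RAB27A, which docks multivesicular bodies, was at 9.01 and 16.1 TPM against 7.06 and 11.1 TPM (adjusted p = 0.544), and the groups overlapped. Among 28 SNARE genes STX3, an apical syntaxin, was the single call, at 29.3 and 28.5 TPM against 8.18 and 13.5 TPM (log2 difference 1.37, SE 0.23, adjusted p = 0.0105), and 0 SNARE genes were called without 6D7 replicate 1 or without DMSO replicate 1. Of 22 AMPK pathway genes 0 were called by limma, with 5 higher and 1 lower at an unadjusted p below 0.05 and a median of 0.14. That p was reached by 21.5% of all tested genes in either direction. PRKAA1 and PRKAA2, the catalytic subunits of AMPK, were at 23.5 and 38.4 TPM against 36.2 and 52.3 TPM and at 4.54 and 7.86 TPM against 5.28 and 9.54 TPM, with overlapping groups. TXNIP, a glucose-responsive inhibitor of glucose uptake that AMPK destabilises, was at 17.3 and 7.01 TPM against 1.37 and 5.35 TPM (log2 difference 1.64, SE 0.70, adjusted p = 0.197).

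**Figure D3:**
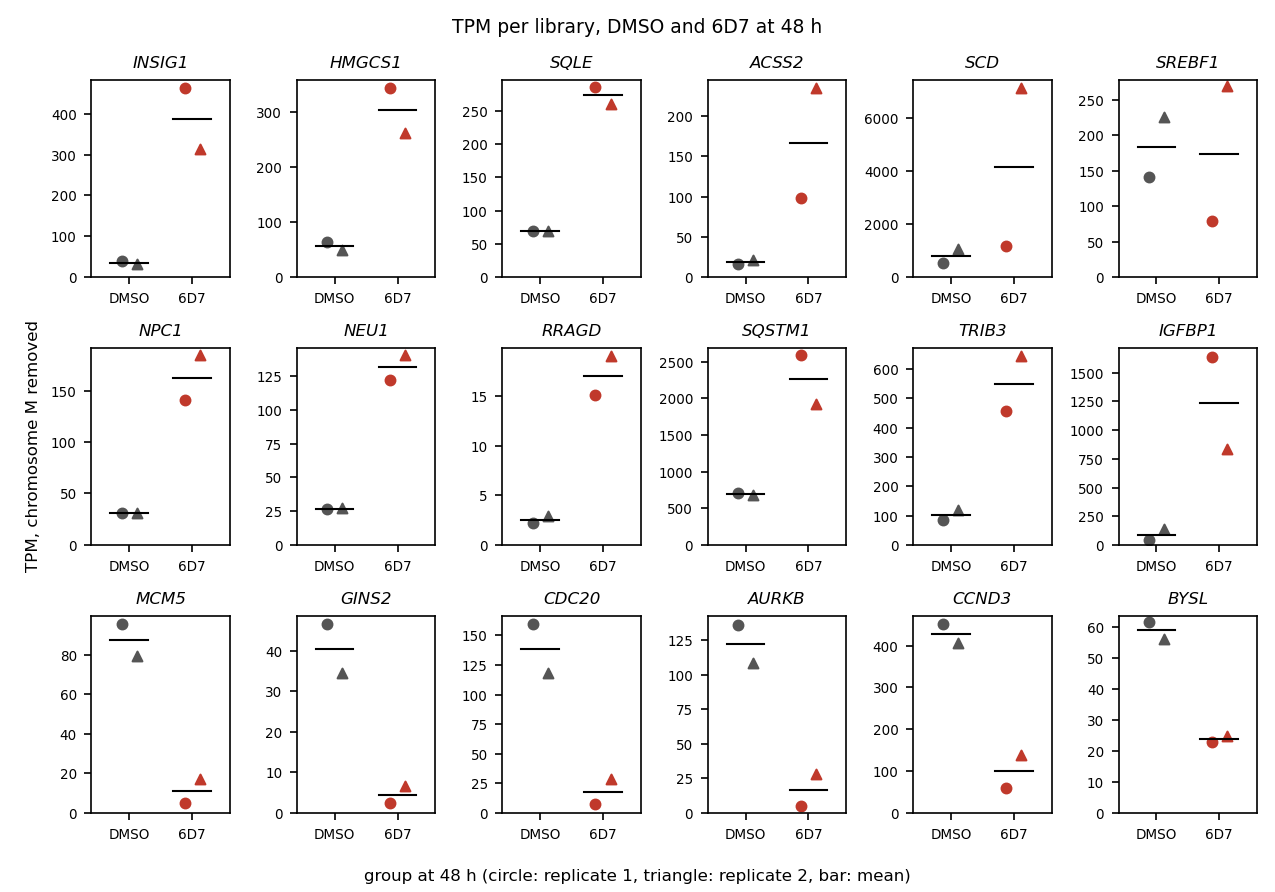
TPM of 18 genes in each of the 4 libraries, with DMSO in grey, 6D7 in red, circles for replicate 1, triangles for replicate 2 and a bar for the mean of the 2 libraries. INSIG1, NPC1 and NEU1 show close DMSO libraries well below both 6D7 libraries, SREBF1 and SCD show a wide gap between the 6D7 libraries, and the cell cycle genes of the bottom row are lower in both 6D7 libraries, farthest in replicate 1 for MCM5, GINS2, CDC20, AURKB and CCND3.

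DNA replication genes fell almost as a whole. Of 48 tested members 44 were called lower and 0 higher, against 3.58% of all tested genes called lower. In all 48 both 6D7 libraries lay below both DMSO libraries. The median log2 difference was -2.11 (-2.02 after median-of-ratios scaling). The summed level was 624 and 1143 TPM with 6D7 and 3669 and 3178 TPM with DMSO. Both 6D7 libraries were low, replicate 1 the lower. The 4 members not called were TYMS, TK1, CCNE1 and CCNE2. Leaving out 6D7 replicate 1 left 11 calls, 6D7 replicate 2 46, DMSO replicate 2 28 and DMSO replicate 1 0, with medians from -2.68 to -1.56.

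The MCM2 to MCM7 proteins form the ring that unwinds DNA, and all 6 genes fell. MCM5 (chr22:35400133-35454942) was at 4.98 and 16.97 TPM with 6D7 and 95.3 and 79.2 TPM with DMSO (log2 difference -3.08, SE 0.39, adjusted p = 0.00411). MCM6 was at 9.65 and 20.4 TPM against 84.4 and 74.2 TPM (log2 difference -2.41, SE 0.31, adjusted p = 0.00422), and MCM3 was at 14.2 and 26.6 TPM against 107 and 86.1 TPM (log2 difference -2.24, SE 0.26, adjusted p = 0.00324). In each gene both 6D7 libraries lay far below both DMSO libraries, replicate 1 the lower. CDC45 and the GINS complex complete the active helicase, and CDC45 was at 1.04 and 7.88 TPM against 46.4 and 35.4 TPM while GINS2 was at 2.37 and 6.55 TPM against 46.4 and 34.5 TPM (log2 difference -3.02, SE 0.39, adjusted p = 0.00436). MCM10, which helps to start the fork, was at 1.16 and 4.54 TPM against 26.02 and 22.6 TPM (log2 difference -2.87, SE 0.48, adjusted p = 0.0104). RRM2, the small subunit of the reductase that supplies deoxynucleotides, was at 10.3 and 37.1 TPM against 189.9 and 126 TPM (log2 difference -2.91, SE 0.71, adjusted p = 0.0365). UHRF1, which brings the maintenance methylase DNMT1 to new DNA, was at 4.55 and 11.6 TPM against 87.3 and 48.1 TPM (log2 difference -2.98, SE 0.40, adjusted p = 0.00436). The polymerase, primase, clamp and clamp-loader genes PCNA, POLA1, POLD1, POLE, PRIM1 and RFC2 to RFC5 were called lower as well. So were the ligase gene LIG1 and the flap endonuclease gene FEN1. PCNA, the sliding clamp, was at 181 and 261 TPM against 669 and 699 TPM. E2F1, E2F2 and E2F8, which encode members of the E2F family, were called lower too, E2F1 at 5.09 and 20.3 TPM against 77.1 and 47.4 TPM.

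E2F factors bind short GC-rich letters near the starts of such genes, and 6 of these stretches are shown because the genes of this list fell together. The letters TTTGGCGC, TTTCCCGC and TTTCGCGC were searched on both strands, an overlap between them counting once for a gene. They were present in the 300-base windows of 22 of the 41 replication genes with a window, 53.7%, and of 4.48% of the 11264 tested genes with one. Among the 38 called members with a window 21 held them, and among the 3 not called 1 did. Capitals mark the match, all 6 stretches are written on the strand of the gene, and they lie before the start at chr6:52284889-52284936, chr2:135876502-135876549, chr16:85688958-85689005, chr7:100101557-100101604, chr20:5126654-5126701 and chr19:48170431-48170478, each on the minus strand of GRCh38.p14. The 6 genes were taken by smallest p from called members whose match, with its flanks, lay wholly before the start. Not every such member was eligible to be shown, so a member with a smaller p may be missing. The sequences are those of RefSeq.
MCM3: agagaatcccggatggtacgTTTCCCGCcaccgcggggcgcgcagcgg
MCM6: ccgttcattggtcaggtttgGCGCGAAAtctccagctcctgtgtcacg
GINS2: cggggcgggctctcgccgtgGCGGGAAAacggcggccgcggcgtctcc
MCM7: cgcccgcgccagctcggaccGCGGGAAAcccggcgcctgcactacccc
PCNA: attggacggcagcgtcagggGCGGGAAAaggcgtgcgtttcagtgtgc
LIG1: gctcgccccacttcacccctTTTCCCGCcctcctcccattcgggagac
The match is TTTCCCGC in MCM3 and LIG1, and its reverse complement in GINS2, MCM7 and PCNA. In MCM6 it is the reverse complement of TTTCGCGC, and a match to TTTGGCGC overlaps it, partly in small letters. Capitals mark 1 match in each stretch, and the windows of MCM3, MCM6 and MCM7 held 2, 4 and 2 matches. MCM7 was at 31.4 and 63.5 TPM against 297 and 236 TPM and LIG1 at 17.4 and 23.4 TPM against 54.5 and 51.1 TPM, so all 6 genes were lower in both 6D7 libraries. No binding was measured here, and the letters describe these windows only.

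Genes of mitosis fell further in median and less evenly. All 46 tested members were lower in both 6D7 libraries than in both DMSO libraries and had an unadjusted p below 0.05, and 22 were called. The median was -2.26. The summed level was 493 and 1588 TPM with 6D7 and 3853 and 4127 TPM with DMSO, so replicate 1 of 6D7 stood well below replicate 2. AURKB, the kinase that corrects chromosome attachment, was at 4.70 and 28.5 TPM against 136 and 108 TPM (log2 difference -3.24, SE 0.73, adjusted p = 0.0266). CDC20, which activates the anaphase-promoting complex, was at 7.20 and 28.8 TPM against 159 and 118 TPM (log2 difference -3.14, SE 0.59, adjusted p = 0.0140). PLK1, a mitotic entry kinase, was at 6.48 and 35.6 TPM against 144 and 134 TPM (log2 difference -3.08, SE 0.67, adjusted p = 0.0228). UBE2C, the ubiquitin-conjugating enzyme of that complex, was at 13.9 and 69.8 TPM against 287 and 245 TPM (log2 difference -3.04, SE 0.63, adjusted p = 0.0186). AURKA, the spindle-pole kinase, and BIRC5, the survivin subunit of the AURKB complex, were at 17.5 and 48.4 TPM against 134 and 132 TPM and at 25.3 and 49.9 TPM against 159 and 137 TPM. In each of these genes replicate 1 of 6D7 was the lowest library and the groups did not overlap. The count was 42 without 6D7 replicate 2, 0 without 6D7 replicate 1, 0 without DMSO replicate 1 and 1 without DMSO replicate 2.

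Several of the largest falls lay outside these lists but belong to the same processes. KIF18B, a kinesin that shortens microtubules, was at 1.10 and 10.7 TPM against 53.6 and 44.6 TPM (log2 difference -3.33, SE 0.66, adjusted p = 0.0164). PKMYT1, the membrane-bound inhibitor of CDK1, was at 1.42 and 14.6 TPM against 74.8 and 43.9 TPM, and ASF1B, a histone chaperone of replication, at 2.04 and 12.8 TPM against 57.9 and 42.2 TPM. NEIL3, a glycosylase that repairs damage at forks, was at 1.05 and 6.97 TPM against 32.3 and 28.6 TPM, and PIF1, a helicase, at 0.181 and 4.91 TPM against 21.1 and 15.96 TPM. In all 5 the 6D7 replicates differed over 2-fold and both lay below DMSO. The kinetochore and centromere genes SPC24, HJURP and ZWINT, and the kinesin KIF2C of the mitosis list, completed the group, at log2 differences from -2.92 to -2.84. CPLX2, a complexin that binds assembled SNARE complexes, was also among the 20 largest falls, at 60.2 and 316 TPM with 6D7 and 1300.2 and 1229 TPM with DMSO (log2 difference -3.18, SE 0.66, adjusted p = 0.0194). DDC, the aromatic amino acid decarboxylase and the single call among 18 tested mucin and secretory genes, fell to 0.836 and 1.26 TPM from 9.95 and 8.40 TPM (log2 difference -2.32, SE 0.22, adjusted p = 0.00185).

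Cell cycle brakes and G1 genes moved in both directions. CDKN1A, which encodes the CDK inhibitor p21, was at 806 and 309 TPM with 6D7 and 158 and 168 TPM with DMSO (log2 difference 1.61, SE 0.38, adjusted p = 0.0328). CCND3, cyclin D3, fell to 60.6 and 139 TPM from 452 and 405 TPM (log2 difference -2.21, SE 0.30, adjusted p = 0.00436), and CDKN2C, a CDK inhibitor of the INK4 family, fell to 11.9 and 26.5 TPM from 47.1 and 55.4 TPM. TP53INP1, a p53 target that promotes autophagy and cell death, was at 16.4 and 13.1 TPM against 1.92 and 4.33 TPM (log2 difference 1.99, SE 0.32, adjusted p = 0.00855). Of 30 tested p53 and arrest genes 3 were called higher, PHLDA3 being the third, and 2 lower, beside 2.39% and 3.58% of all tested genes. Without 6D7 replicate 1, 0 were called higher and 1 lower, and without DMSO replicate 1 none was called.

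Ribosome biogenesis factors were called lower in 14 of 45 tested members and higher in 0, beside 3.58% and 2.39% of all tested genes. Of 77 cytosolic ribosomal protein genes 0 were called by limma. At an unadjusted p below 0.05 were 3 higher and 2 lower, beside 21.5% of all tested genes in either direction. The medians were -0.71 and -0.02, beside -0.06 over all tested genes. BYSL, which matures the small subunit, was at 22.7 and 24.9 TPM against 61.6 and 56.1 TPM (log2 difference -1.27, SE 0.20, adjusted p = 0.00855). NOP16 and MRTO4, factors of the large subunit, were at 55.6 and 54.4 TPM against 149 and 104 TPM and at 37.5 and 39.2 TPM against 104 and 75.4 TPM, and BOP1, a partner in the same pathway, at 58.8 and 47.4 TPM against 156 and 119 TPM. The 6D7 libraries were close to one another in all 4 genes, unlike the division genes. Calls numbered 2 without 6D7 replicate 1, 0 without DMSO replicate 1, 7 without DMSO replicate 2, and 14 lower with 1 higher without 6D7 replicate 2. PSMD6 was the single call among 37 proteasome genes, at 58.4 and 68.6 TPM against 112 and 98.9 TPM.

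The remaining large rises were of mixed function. IGFBP1, one of 2 called members among 31 tested growth factor and feedback genes and a secreted binding protein of insulin-like growth factors, was at 1639 and 836 TPM with 6D7 and 40.2 and 139.6 TPM with DMSO (log2 difference 3.94, SE 0.46, adjusted p = 0.00329). IGFL2-AS1, an antisense RNA, was at 90.9 and 212 TPM against 3.86 and 5.65 TPM (log2 difference 4.62, SE 0.63, adjusted p = 0.00436), and its reads cannot be told from those of the opposite strand where the genes overlap, since strandedness was not given. CEMIP, which breaks down hyaluronan, was at 22.5 and 23.5 TPM against 0.557 and 3.33 TPM (log2 difference 3.21, SE 0.63, adjusted p = 0.0164). RHCG, an ammonium transporter, was at 288 and 60.2 TPM against 20.5 and 12.3 TPM (log2 difference 2.98, SE 0.73, adjusted p = 0.0365), with replicate 1 of 6D7 far above replicate 2. KCP, a secreted BMP modulator, was at 6.05 and 4.86 TPM against 0.0809 and 0.0588 TPM (log2 difference 2.59, SE 0.22, adjusted p = 0.00128). TNFSF9, the 4-1BB ligand, was at 74.5 and 125 TPM against 14.6 and 18.3 TPM (log2 difference 2.49, SE 0.39, adjusted p = 0.00841), and ADORA2A, an adenosine receptor, at 8.32 and 3.15 TPM against 0.0766 and 0 TPM. BEX2 and BEX4, related adaptor-like proteins whose reads may be shared, were at 56.04 and 22.5 TPM against 4.63 and 4.85 TPM and at 18.2 and 6.67 TPM against 0.665 and 1.25 TPM. IFITM10 was at 47.3 and 28.6 TPM against 4.73 and 5.14 TPM. In all of these both 6D7 libraries exceeded both DMSO libraries.

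For RNF113A, which encodes a spliceosome-associated ubiquitin ligase, the call rests on listed zeros. It was at 65.9 and 33.7 TPM with 6D7 and listed at 0 in both DMSO libraries at 48 h, yet at 29.00 and 36.8 TPM with DMSO at 4 h (adjusted p = 0.0165). ISY1-RAB43, a readthrough transcript over ISY1 and RAB43 (chr3:129087569-129161230), was at 11.6 and 9.39 TPM with 6D7 and 1.03 and 0 TPM with DMSO, and reads of the 2 overlapping genes may be split between the entries. It was listed at 0 in both libraries of 5G6 and 7F8 at 48 h and of 6D7 and DMSO at 4 h. Those groups add no spread to its error, so its p-values rest partly on listed zeros. In all, 13 called genes were listed at 0 in both DMSO libraries and 8 in both 6D7 libraries. Adhesion and epithelial genes lay in both directions, with 4 of 36 tested called higher, 0 called lower and a median of -0.23. In 13 of them both 6D7 libraries exceeded both DMSO libraries and in 10 both lay below, beside 20.7% and 27.1% of all tested genes. The calls were KRT19, ITGA3, ITGA5 and L1CAM, with the keratin KRT19 at 263 and 352 TPM against 37.4 and 80.7 TPM (log2 difference 2.44, SE 0.47, adjusted p = 0.0152). EPCAM, an epithelial adhesion molecule, was at 2.04 and 3.57 TPM against 7.70 and 7.84 TPM (adjusted p = 0.166), and the keratin KRT7 at 1718 and 2176 TPM against 3016 and 2393 TPM (adjusted p = 0.283). VIM, the mesenchymal filament protein, was at 1974 and 1448 TPM against 951 and 1184 TPM (adjusted p = 0.329). DUSP5, a phosphatase that turns off ERK, was at 406 and 180.0 TPM against 85.1 and 70.1 TPM (log2 difference 1.79, SE 0.41, adjusted p = 0.0291). THBS1 and TEAD4 fell among 21 tested YAP and TGF-beta genes, THBS1 to 7.03 and 7.93 TPM from 32.8 and 18.6 TPM.

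At 4 h, 6D7 differed from DMSO in 0 genes called by limma (0.00% of tested genes), with 180 at an unadjusted p below 0.05. The error of that test came from all 16 libraries, and no fit used the 4 h libraries alone. Over 2-fold apart between replicates were 13.97% of tested genes for 6D7 at 48 h. At 4 h the shares were 5.79% for 6D7 and 5.85% for DMSO. The 0 calls thus do not show that 6D7 had no effect at 4 h. The effect at 48 h minus that at 4 h was also called in 0 genes (0.00%), the smallest adjusted p being 0.0645, with 1236 at an unadjusted p below 0.05. List medians at 4 h and at 48 h were 0.81 and 1.68 for sterol synthesis, 0.67 and 0.67 for ATF4 targets, 0.18 and 0.55 for the lysosome, 0.16 and 1.14 for hypoxia, and 0.12 and 0.98 for NF-kB. For DNA replication they were -0.21 and -2.11 and for mitosis -0.11 and -2.26. INSIG1 was at 197 and 97.7 TPM with 6D7 and 29.2 and 49.1 TPM with DMSO at 4 h, and its difference between times was 1.56, 95% interval -0.21 to 3.32. TRIB3 was at 388 and 408 TPM and 101 and 98.1 TPM at 4 h, with a difference between times of 0.43, 95% interval -0.84 to 1.71. MCM5 was at 57.8 and 64.98 TPM and 87.4 and 75.9 TPM at 4 h, with a difference between times of -2.68, 95% interval -3.87 to -1.48. The values of MCM5 thus lay nearer to one another at 4 h and far apart at 48 h, although the interaction did not pass the test for any gene.

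Against 5G6 at the same dose and time, 1 gene differed, 0.00627% of those tested, with 340 at an unadjusted p below 0.05. It was ISY1-RAB43, listed at 0 in both 5G6 libraries and at 11.6 and 9.39 TPM with 6D7 (adjusted p = 0.00102 by limma). That p-value rests partly on an error made small by listed zeros. INSIG1 was at 538 and 430.2 TPM with 5G6 and 463 and 313 TPM with 6D7 (log2 difference -0.34, 95% interval -1.59 to 0.91). TRIB3 was at 753 and 706 TPM with 5G6 (log2 difference of 6D7 minus 5G6 -0.43, 95% interval -1.33 to 0.47). MCM5 was at 16.7 and 14.5 TPM with 5G6 (log2 difference -0.68, 95% interval -1.52 to 0.17). The intervals of INSIG1, TRIB3 and MCM5 each reach beyond a 2-fold lower level with 6D7, so the small number of calls does not show that the compounds act alike. Median differences of 6D7 minus 5G6 were -0.53 for sterol synthesis, 0.27 for ATF4 targets, -0.38 for DNA replication and -0.80 for mitosis.

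**Figure D4:**
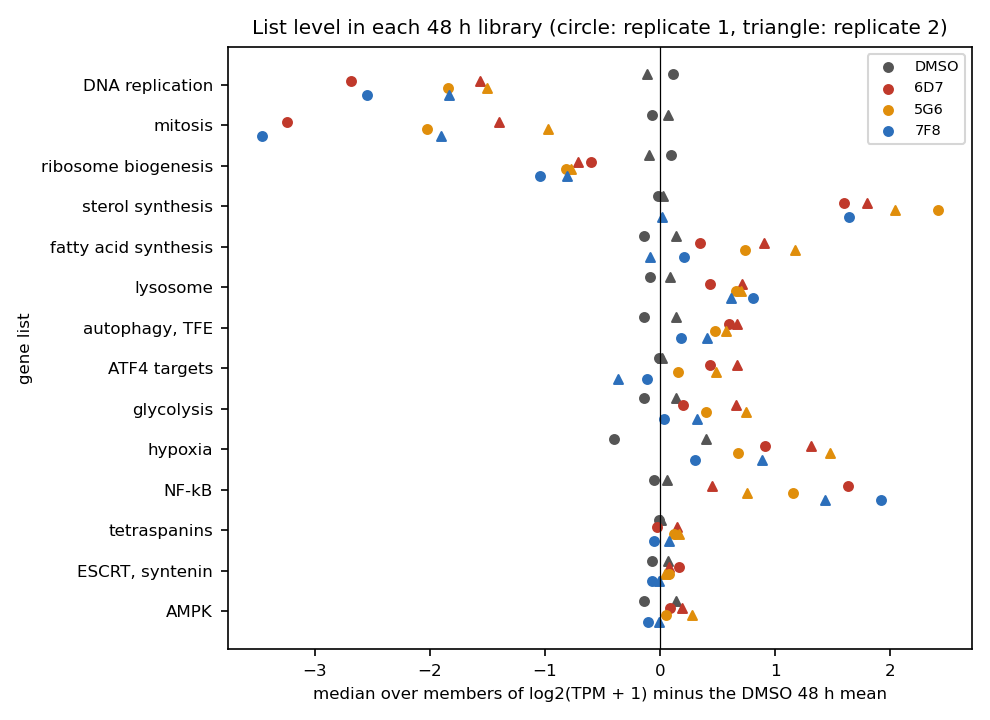
Median over the members of each list of log2(TPM + 1) minus the mean of the 2 DMSO libraries, for the 8 libraries of 48 h, with colours for groups, circles for replicate 1 and triangles for replicate 2. The 6D7 libraries stand at 1.601 and 1.79 for sterol synthesis and at -3.24 and -1.40 for mitosis, and the 3 compounds share the 2 DMSO libraries as their reference.

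Against 7F8 at the same dose and time, 78 genes differed, 0.489% of those tested, 62 higher with 6D7 (0.389%) and 16 lower, with 2032 at an unadjusted p below 0.05. ATF4 targets were the fullest list among them, with 10 of 36 members higher with 6D7, ATF4 itself being counted. Of 20 tRNA synthetases 3 were higher, CARS, GARS and IARS. ATF4 was at 938 and 622 TPM with 6D7 and 258 and 265 TPM with 7F8 (log2 difference 1.54, SE 0.19, adjusted p = 0.0121). ASNS was at 51.8 and 54.9 TPM and 5.97 and 10.02 TPM (log2 difference 2.63, SE 0.25, adjusted p = 0.00175). PHGDH was at 47.3 and 47.4 TPM and 3.24 and 9.56 TPM (log2 difference 2.85, SE 0.38, adjusted p = 0.0121). For these 3 genes the 7F8 libraries were also below both DMSO libraries, which stood at 39.8 and 40.2 TPM for ASNS and 42.9 and 42.3 TPM for PHGDH. TRIB3 was at 455 and 645 TPM and 128 and 88.6 TPM (log2 difference 2.33, SE 0.41, adjusted p = 0.0358). GDF15 was at 777 and 483 TPM and 180.4 and 164 TPM (log2 difference 1.83, SE 0.24, adjusted p = 0.0121). In TRIB3 and GDF15 the 7F8 values were near those of DMSO. PSAT1, ALDH1L2, CEBPG, PCK2 and ADM2 were the other members called.

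Outside that list KRT19, an epithelial keratin, was at 263 and 352 TPM with 6D7 and 16.7 and 39.9 TPM with 7F8 (log2 difference 3.50, SE 0.47, adjusted p = 0.0121). LPIN1 was at 72.3 and 106 TPM and 22.8 and 16.04 TPM (log2 difference 2.14, SE 0.36, adjusted p = 0.0358), and BEX2 at 56.04 and 22.5 TPM and 5.58 and 5.93 TPM (log2 difference 2.44, SE 0.32, adjusted p = 0.0121). TRIML2, a tripartite-motif-like protein, was at 95.9 and 40.6 TPM and 4.94 and 6.85 TPM, and the long RNA GACAT2 at 12.5 and 20.7 TPM and 1.42 and 0 TPM. Lower with 6D7 were EFNA1, an ephrin ligand, at 94.4 and 87.96 TPM and 915 and 656 TPM (log2 difference -3.07, SE 0.44, adjusted p = 0.0200), and G0S2, an inhibitor of triglyceride lipase, at 19.9 and 12.6 TPM and 108 and 66.03 TPM (log2 difference -2.34, SE 0.32, adjusted p = 0.0133). The chemokine CXCL10 was at 3.78 and 4.05 TPM and 22.1 and 17.7 TPM, CCL17 at 1.604 and 1.34 TPM and 11.8 and 27.4 TPM, and the interferon lambda gene IFNL2 at 8.98 and 16.1 TPM and 58.1 and 75.6 TPM. CCL15 was listed at 0 in both 6D7 libraries and at 8.43 and 1.85 TPM with 7F8. For INSIG1 the difference of 6D7 minus 7F8 was 1.81, 95% interval 0.56 to 3.06, with 202 and 57.3 TPM in the 7F8 libraries. For MCM5 the difference was -0.35, 95% interval -1.20 to 0.49, and neither gene was called. Median differences were 0.05 for DNA replication, 0.38 for mitosis, 0.93 for sterol synthesis and -0.93 for NF-kB. The 7F8 libraries disagreed on sterol synthesis. Their median shifts from the DMSO mean were 1.64 and 0.02, beside 1.601 and 1.79 in the 6D7 libraries. Leaving out 1 library gave from 7 calls (without 7F8 replicate 1) to 378 (without 6D7 replicate 2), with 15 without 6D7 replicate 1, and the 48 h libraries alone gave 0, with limma.

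**Figure D5:**
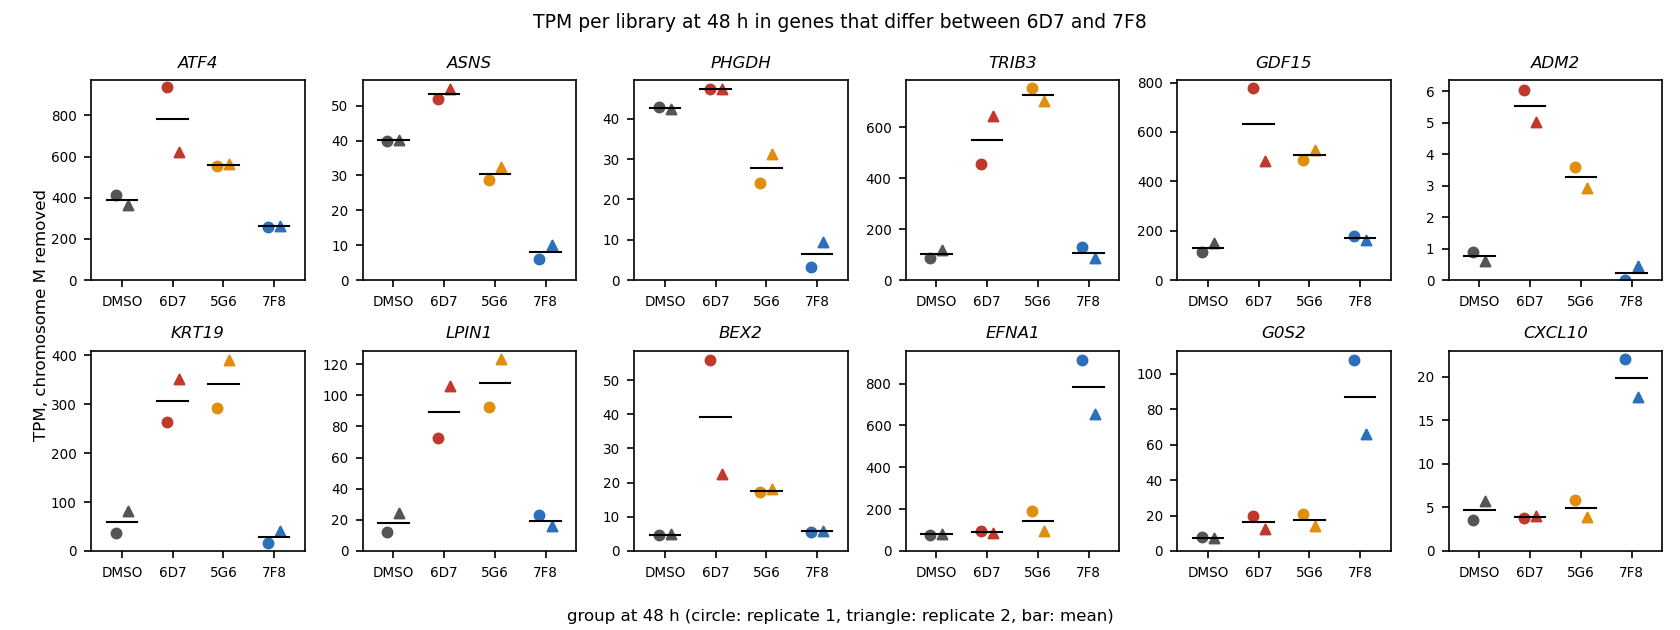
TPM of 12 genes in each 48 h library, with DMSO in grey, 6D7 in red, 5G6 in orange, 7F8 in blue, circles for replicate 1, triangles for replicate 2 and a bar for the mean. ASNS and PHGDH are lowest with 7F8, TRIB3 and GDF15 are near DMSO with 7F8 and higher with 6D7, and EFNA1, G0S2 and CXCL10 are highest with 7F8.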

How the data were processed

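PolyA RNA of 16 A549 libraries was sequenced after TRIzol extraction, DNase I treatment and library preparation with a NEBNext Ultra kit, per the labels' protocols. The submitters' processing notes name STAR 2.6.1a, featureCounts 1.6.3, StringTie 2.0 and GRCh38, and strandedness is not given in the sources used here. TPM values were deposited by the authors in gene abundance tables with the columns of StringTie, as were FPKM values and Coverage (mean read coverage per gene, unscaled), per the file headers; no count values were used, so a count test was not run. The ratio of Coverage to FPKM gave the aligned bases per library.

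TPM was summed by gene name, chromosome M was removed and the rest rescaled to a sum of 1000000. Of 39550 genes, 15958 reached 1 TPM in 2 or more libraries. Their log2(TPM + 1) values in 16 libraries were fitted with limma 3.58.1 (R 4.3.3) as 8 group means with a variance trend, leaving 8 residual degrees of freedom. Tests were two-sided, with Benjamini-Hochberg adjustment within a comparison, and p-values rest on 2 biological replicates a group. Members, lists (33, beside 2 of other cell types) and tests were chosen with earlier results of these data known.

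Named genes had to be called, without overlap between groups and at 5 TPM or more in the mean of the higher group. They were the 20 largest rises and falls, the 4 members of each list with the smallest p, the 6 largest each way between compounds or times, and a fixed set with the SREBP, tetraspanin, AMPK and stress genes. A few named genes are not reported here. The procedure was tested on simulated data. Alternatives were TPM as deposited, median-of-ratios scaling, a pseudocount of 0.1, no filter, no trend, fewer libraries, a replicate block and leaving out each library.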

Additional observations from a re-analysis of the deposited data

Results flagged for a closer look

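In data outside the comparison, on chromosome M, the tRNA gene TRNY had a read coverage of 15808 in replicate 1 and 12904 in replicate 2 of 6D7 at 48 h, and was listed at 0 in both DMSO libraries of 48 h. The tRNA gene TRNC was listed at 0 in both 6D7 libraries and had a coverage of 15184 and 12689 in the DMSO libraries. Chromosome M took 6.13% and 6.48% of the deposited TPM with 6D7 and 31.0% and 29.0% with DMSO. Whether the exchange arose in the cells or in the assignment of reads was not tested. Groups of 2 libraries were too small for a check of single outlying samples.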

How the results depend on the processing

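For 6D7 against DMSO at 48 h the 953 called genes became 1893 with TPM as deposited and chromosome M kept (1664 higher, 229 lower, median over all genes 0.29), 2000 with the replicate block, 2039 with the block and median-of-ratios scaling together (added after the data were seen), 7 from the 48 h libraries alone and 0 from the 4 compared libraries alone, with limma in each fit. The causes were not tested, beyond the smaller number of samples in the last 2. Other settings gave 702 to 938. Leaving out 1 library gave 13 to 1765. Of the 953, 791 were still called under median-of-ratios scaling and 604 with TPM as deposited. The block kept all 106 called named genes. With the block, calls went from 22 to 44 of 46 for mitosis, from 12 to 18 of 20 for sterol synthesis and from 44 to 47 of 48 for DNA replication. Across genes, replicates of 6D7 at 48 h deviated with those of the same number at r = 0.389 for DMSO, 0.533 for 5G6 and 0.38 for 7F8 at 48 h, and at 0.0536 to 0.109 for the 4 h groups. The labels do not say what a number shares, and with 2 numbers a pairing could not be settled. Against 5G6 the 1 call became 31 without a filter, 0 with a pseudocount of 0.1, 0 from the 48 h libraries alone, and 1 to 42 with 1 library left out. Against 7F8 the 78 became 2526 with TPM as deposited (2496 higher), 328 with the replicate block, 295 with block and scaling, 0 from the 48 h libraries alone, and 7 to 378 with 1 library left out. The 0 calls between times became 4 with TPM as deposited, 4 with the replicate block, 3 with block and scaling, 3 without the trend, 16 without a filter, and 0 to 176 with 1 library left out (176 without replicate 2 of 6D7 at 48 h). The 0 calls at 4 h became 1 without a filter, 1 with a pseudocount of 0.1, and 0 to 1 with 1 library left out. A sample left alone in its group was assumed to vary like the other groups.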

Other observations

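The aldo-keto reductase AKR1B10, a highly expressed A549 gene, was at 1544 and 4186 TPM with 6D7 and 5286 and 5611 TPM with DMSO. NQO1, a quinone reductase regulated by NRF2, was at 739 and 1511 TPM and at 1627 and 1697 TPM. Replicate 1 of 6D7 was the lowest library for both. Of 33 tested NRF2 targets 10 were lower and 2 higher at an unadjusted p below 0.05 by limma. Over all 15958 tested genes the counts were 1908 lower and 1521 higher. CDH1, the epithelial cadherin, was at 10.2 and 38.7 TPM with 6D7 and 36.1 and 51.6 TPM with DMSO, so the groups overlapped. These genes were chosen after their values were seen.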
